A study of Mus musculus with 6 samples.

Results

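The trypsinogen genes Prss1, Prss2, Prss3, Try4, Try5 and Try10 and the trypsin inhibitor gene Spink3 were followed in whole pancreas of 8-week-old mice. These 7 genes were chosen by symbol from the 23099 gene symbols of the deposited tables, and each was found in 1 row. Polyadenylated RNA was sequenced as stranded libraries in 3 wild-type (WT) samples and 3 samples labelled Ela1-Myc, a line with Myc under the promoter of elastase 1, which is active in the enzyme-secreting acinar cells. The study asks about Myc levels in the maturation of acinar cells. No treatment is given in the labels. They also do not state whether each library is a different animal, and the p-values therefore speak only of variation among the 6 libraries. All values are the authors' adjusted FPKM (transcript fragments counted per kilobase, relative to those mapped) divided by 100000, with unknown depth. They are per length, and genes were compared on that basis. How the authors adjusted them is not described, so comparisons between genes rest on an unknown adjustment.

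Trypsinogens are inactive precursors that acinar cells store in zymogen granules. In the gut, enteropeptidase cuts off their activation peptide, and the trypsin so formed activates the other pancreatic zymogens. Spink3, the mouse counterpart of human SPINK1, is stored in the same granules and blocks trypsin that forms too early inside the pancreas. The mouse genome carries a row of trypsinogen copies on chromosome 6, and reads from close copies are hard to assign. A set of further rows from that cluster was therefore read beside the 6 trypsinogen members: 2210010C04Rik (a cationic trypsinogen gene), 1810009J06Rik, Gm5771, Gm10334, Gm5409 (annotated as a pseudogene), Gm2663 and the distant Prss58.

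On GRCm38 (mm10) the members lie on chromosome 6 at 41302272 to 41305533 (Try4), 41311232 to 41314710 (Try5), 41354105 to 41357944 (Try10), 41373759 to 41377613 (Prss3), 41458930 to 41463786 (Prss1) and 41521776 to 41525079 (Prss2). The copies stand at 40964772 to 40968427 (1810009J06Rik), 40995822 to 40999479 (Gm2663), 41030268 to 41035509 (2210010C04Rik), 41392356 to 41397256 (Gm5771), 41415307 to 41419593 (Gm5409) and 41442214 to 41446097 (Gm10334).

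Coding sequences of the most abundant trypsinogens show how alike they are. The first 120 bases of the GENCODE M21 coding sequences are printed 5′ to 3′ from the start codon, with capitals where Try4 and Try5 differ from Prss2. The run gatgatgatgacaag in each encodes the end of the activation peptide, after which enteropeptidase cuts.
Prss2: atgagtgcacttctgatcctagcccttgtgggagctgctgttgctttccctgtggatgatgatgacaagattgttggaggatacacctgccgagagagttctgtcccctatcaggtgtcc
Try4: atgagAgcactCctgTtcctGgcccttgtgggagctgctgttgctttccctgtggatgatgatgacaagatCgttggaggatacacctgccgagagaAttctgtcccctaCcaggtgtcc
Try5: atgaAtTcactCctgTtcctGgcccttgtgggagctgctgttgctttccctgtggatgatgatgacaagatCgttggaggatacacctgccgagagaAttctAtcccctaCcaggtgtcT
Try4 differed from Prss2 at 7 of these 120 bases and Try5 at 10. Over the whole coding sequence of 741 bases, identity was 91.6% for Prss2 and Try4, 90.3% for Prss2 and Try5, and 97.4% for Try4 and Try5.

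Of the other trypsinogen rows, 6 were grouped into pairs of near-identical copies, and the values below follow those pairs. In the next 6 sequences, which cover the same first 120 coding bases, capitals mark bases that are changed or missing in the partner copy.
Prss1: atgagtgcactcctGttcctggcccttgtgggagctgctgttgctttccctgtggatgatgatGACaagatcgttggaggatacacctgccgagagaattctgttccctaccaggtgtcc
Gm5771: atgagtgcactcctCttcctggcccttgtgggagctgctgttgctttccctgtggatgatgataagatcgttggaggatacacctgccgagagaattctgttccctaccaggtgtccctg
Prss3: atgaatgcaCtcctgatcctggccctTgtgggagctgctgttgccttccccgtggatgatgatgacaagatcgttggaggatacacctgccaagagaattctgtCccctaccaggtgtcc
Gm10334: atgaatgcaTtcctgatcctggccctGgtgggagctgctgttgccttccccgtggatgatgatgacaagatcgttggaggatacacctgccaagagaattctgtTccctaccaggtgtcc
1810009J06Rik: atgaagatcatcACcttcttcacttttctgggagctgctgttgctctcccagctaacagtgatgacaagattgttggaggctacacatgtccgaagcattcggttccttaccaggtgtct
Gm2663: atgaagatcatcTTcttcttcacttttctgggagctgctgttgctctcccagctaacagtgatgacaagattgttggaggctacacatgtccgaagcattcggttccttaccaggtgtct
Coding identity was 97.6% for Prss1 and Gm5771, with 15 mismatches and 3 gap bases, which lie inside the run that encodes the end of the activation peptide. It was 99.1% for Prss3 and Gm10334, with 7 mismatches. Between a gene of the Prss1 pair and a gene of the Prss3 pair, coding identity was still 96.2% to 96.8%. For 1810009J06Rik and Gm2663 it was 99.5%, with 4 mismatches in 744 bases. The last pair was only 72.4% and 72.8% identical to Prss2, while 2210010C04Rik was 75.3% identical to it.

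How much of each transcript could identify its gene was measured by sliding a window of 50 bases along it and counting the windows found in the transcript of no other mouse gene. The share was 100% for 2210010C04Rik and 92.2% for Prss2, followed by 68.7% for Gm5409, 59.2% for Try10, 46.1% for Try5, 45.1% for Prss1, 44.6% for Gm5771, 36.3% for Gm10334, 34.4% for Try4 and 33.9% for Prss3. It was lowest for 1810009J06Rik, at 18.5%, and Gm2663, at 16.5%. Try4 shared 45.9% of its windows with Try5, and Prss3 shared 65.1% with Gm10334. With windows of 75 bases the share rose to 99.1% for Prss2, 56.1% for Try4 and 46.1% for Prss3. No source used here states the read length.

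**Figure D1:**
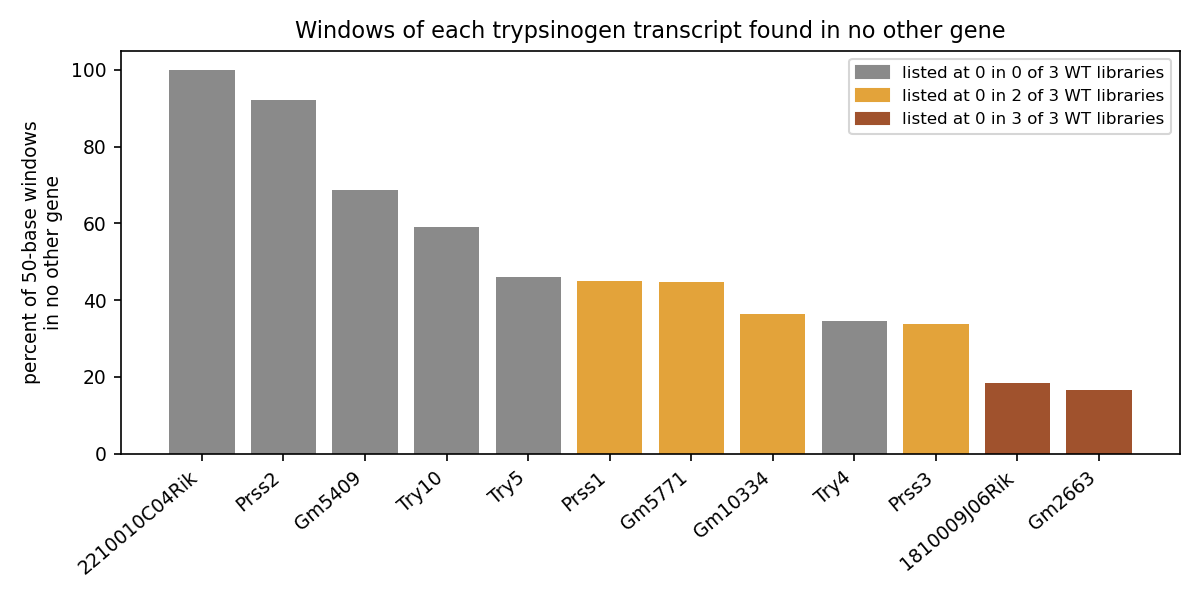
Percent of the 50-base windows of each trypsinogen transcript (vertical axis) that occur in the transcript of no other gene, coloured by the number of WT libraries in which the gene was listed at 0. All 6 genes with a listed 0 lie below 46%, and Try4 at 34.4% lies among them without one.

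The libraries differed in ways that touch the values that follow. The summed values of all genes ranged from 669391 to 1948844 in WT and from 629597 to 1088320.0 in Ela1-Myc, and RNA integrity numbers were 7.1 to 7.3 in WT and 7.2 to 8.8 in Ela1-Myc. The 8 markers of acinar cells summed to 251529 to 771826 in WT and 150583 to 324756 in Ela1-Myc. On the deposited scale most tested markers of other cells were called higher in Ela1-Myc, as were 70.2% of all tested genes: 5 of 6 immune markers were in the tables and summed to 0 to 53.6 in WT and 226 to 841 in Ela1-Myc, with Cd68 listed at 0 in all 3 WT libraries. The 6 islet markers summed to 0 to 2281 and 2326 to 3182, the 6 duct markers to 4.44 to 76.1 and 131 to 278, and 4 of 5 stromal markers to 45.1 to 84.8 and 240.1 to 362. The 3 endothelial markers summed to 7.78 to 12.3 and 19.3 to 24.6, and the 3 adipocyte markers to 0 to 167 and 89.2 to 365, with overlap. After median-of-ratios scaling, explained below, 1 of 5 tested immune markers, 2 of 6 islet, 1 of 5 duct, 2 of 4 stromal, 0 of 3 endothelial and 0 of 3 adipocyte markers were called higher, where 18.3% of all tested genes were. Of the 8 acinar markers, 5 were called lower on the deposited scale and 8 after scaling (median log2 change -2.63), against 0.239% and 8.02% of all tested genes. The acinar markers Cela1, Cpa1 and Ctrb1 are also among the zymogens read below. Cd68, Ptprc, Cd3e, Krt7 and Col1a1 had WT means of 0 to 0.760, below the minimum mean of 1 for testing. They entered the test only through their Ela1-Myc values, so their calls on either scale carry no weight. After scaling, the immune call was Cd68, the duct call was Krt7, and the stromal calls included Col1a1. The part of the markers of other cells in the results was not tested. In whole tissue, fewer acinar cells and less RNA per cell cannot be told apart.

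Prss2, Try4 and Try5 were the most abundant trypsinogen transcripts in every library, and on the deposited scale none of them passed the test. Prss2 stood at 28705, 75580.3 and 44279 in WT replicates 1 to 3 and at 52138, 18018 and 22818 in Ela1-Myc replicates 1 to 3. The groups overlapped, since the first Ela1-Myc library lay above 2 of the WT libraries. The WT mean was 49521 ± 23874 and the Ela1-Myc mean 30991 ± 18469.8 (SD, n = 3 each), and the log2 change was -0.72 ± 0.426 (SE; limma adjusted p = 0.136).

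Try4 was at 32694, 75311 and 57282 in WT, against 53147, 27538 and 30007 in Ela1-Myc, again with overlap (log2 change -0.56 ± 0.356 SE, limma adjusted p = 0.163). Try5 was at 15378, 42992 and 21642 in WT, against 64021, 22642 and 19766 in Ela1-Myc (log2 change 0.33 ± 0.471 SE, limma adjusted p = 0.52). It was the only one of these 3 genes whose Ela1-Myc mean, 35476 ± 24762, lay above its WT mean, 26671 ± 14478 (SD, n = 3 each), and leaving out Ela1-Myc replicate 1 turned its log2 change to -0.20. In each WT library Try5 stood below both Prss2 and Try4. In Ela1-Myc replicate 1 it stood above both, and in replicate 2 it lay between them.

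Try10, a less abundant trypsinogen, was at 1419.8, 3723 and 2719 in WT, against 2852, 1796 and 1803 in Ela1-Myc. Its log2 change was -0.21 ± 0.626 (SE; limma adjusted p = 0.759). The inhibitor Spink3 (chromosome 18, 43728069 to 43737237) had a similar level, with 1662, 4381 and 2735 in WT and 5116, 1960.0 and 2098 in Ela1-Myc. Its WT mean was 2926 ± 1369 and its Ela1-Myc mean 3058 ± 1784 (SD, n = 3 each). The log2 change was 0.03 ± 0.638 (SE; limma adjusted p = 0.97). WT replicate 2 and Ela1-Myc replicate 1 were the highest libraries of their groups for Prss2, Try4, Try5, Try10 and Spink3 alike.

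**Figure D2:**
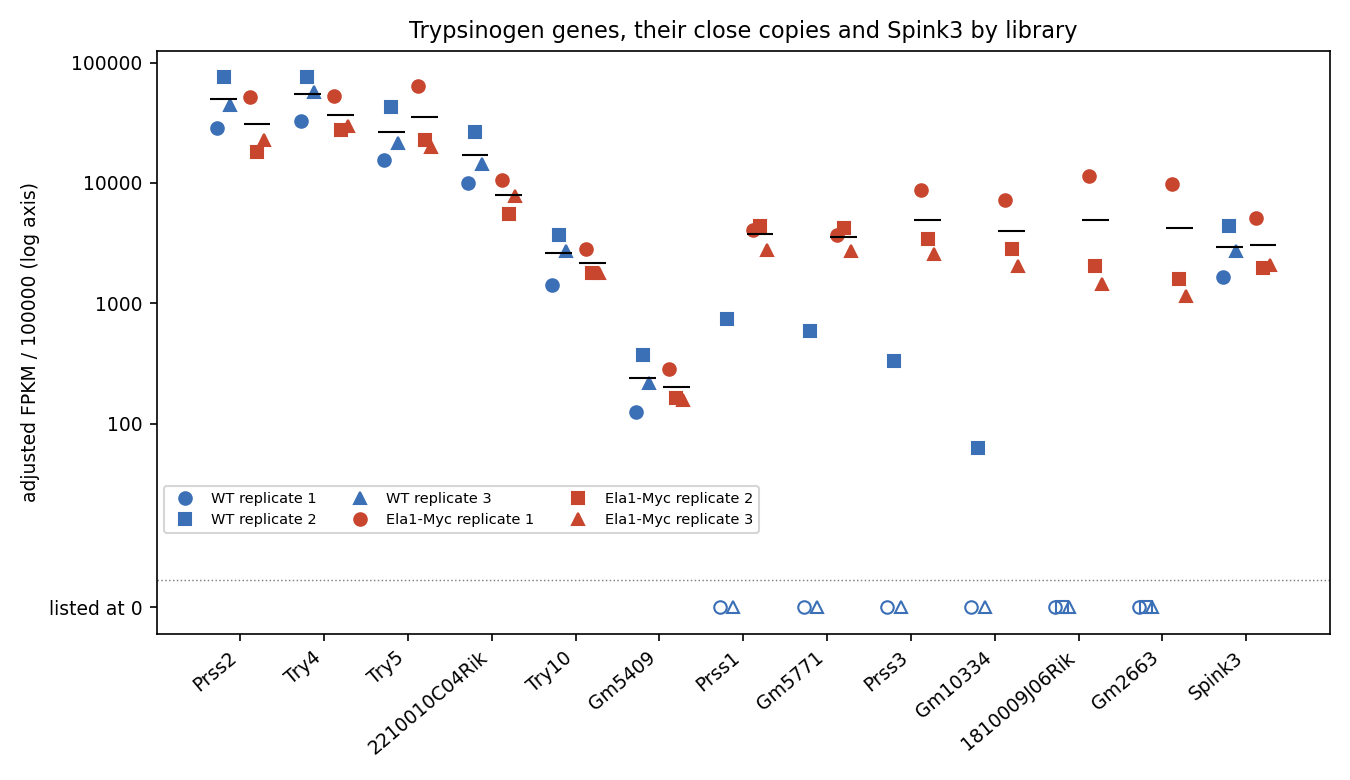
Adjusted FPKM divided by 100000 (log axis) of 6 trypsinogen members, 6 close copies and Spink3 in each library; marker shapes are replicates, short lines are group means where no value is 0, and open markers are listed zeros. Prss2, Try4, Try5, Try10 and Spink3 overlap between groups, while the Ela1-Myc values of Prss1 and Prss3 all lie above the single WT values of 736.2 and 329.8.

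Prss1 and Prss3 were the members called higher, and 2 of 3 WT values of each were exact zeros. The Prss1 values were 0 for WT replicates 1 and 3 and 736.2 for WT replicate 2, against 4098, 4426 and 2766 in Ela1-Myc (limma adjusted p = 0.00118). The Prss3 values were likewise 0, 329.8 and 0, against 8787, 3458 and 2589 in Ela1-Myc (limma adjusted p = 0.000392). No mean or fold is given for them in WT. An exact 0 in these tables does not show absence: among the 8802 genes tested, 592 to 1426 were listed at 0 in each WT library and 0 to 29 in each Ela1-Myc library. In all, 2 of the 7 members were called higher and 0 lower, where 70.5% of all tested genes were called, 70.2% higher and 0.239% lower. Prss1 and Prss3 were also the only members whose Ela1-Myc values all lay above all WT values, as for 75.3% of tested genes.

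The near-identical copies carried the same pattern as their partners. Gm5771, the partner of Prss1, was at 585.5 for WT replicate 2 and listed at 0 for the other two, against 3728, 4258 and 2748 in Ela1-Myc. Gm10334, the partner of Prss3, was at 63.0 for WT replicate 2 with zeros for the others, against 7219.7, 2812 and 2027 in Ela1-Myc. For 1810009J06Rik every WT library was listed at 0, and the Ela1-Myc values were 11330, 2032 and 1436. For Gm2663 they were 9865, 1599 and 1157, again with a 0 in every WT library.

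Inside the Ela1-Myc libraries the 2 genes of a pair kept nearly constant proportions. Prss1 over Gm5771 was 1.099, 1.04 and 1.006 in Ela1-Myc replicates 1 to 3, and 1.26 in WT replicate 2. Prss3 over Gm10334 was 1.22, 1.23 and 1.28, against 5.23 in WT replicate 2, and 1810009J06Rik over Gm2663 was 1.15, 1.27 and 1.24. Gm5771 and Gm10334 were called higher (limma adjusted p = 0.000932 and 5.69e-05), with p-values that take the zeros as measured. No test is given for 1810009J06Rik and Gm2663, which could enter the test only through their Ela1-Myc values. How far read assignment between copies enters these values was not tested.

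The copies without zeros did not pass. The cationic trypsinogen 2210010C04Rik, whose sequence is distinct from every other transcript at 50 bases, was at 9944, 26505 and 14464 in WT, against 10572, 5545 and 7722 in Ela1-Myc (log2 change -1.02 ± 0.47 SE, limma adjusted p = 0.0634). The pseudogene Gm5409 was low, between 124.4 and 374.1 in WT, and between 159.0 and 282.3 in Ela1-Myc (log2 change -0.16, limma adjusted p = 0.859). Prss58 was near 0 in every library and was not tested.

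Relative to the median gene Prss2, Try4, Try5, Try10 and Spink3 were low in Ela1-Myc, while Prss1 and Prss3, with their listed zeros in WT, were not. The median of all tested genes was 1.22 log2 units above WT as deposited, and median-of-ratios scaling, which divides each library by its median ratio to the geometric mean of the genes, reduced that to 0.23, while the median of the 7 members went from 0.03 to -1.49. After scaling 4 members were called lower and 1 higher, where 26.4% of tested genes were called, 8.02% lower and 18.3% higher. The 4 were Prss2 with a log2 change of -2.24 ± 0.385 (limma adjusted p = 0.00939), Try4 with -2.08 ± 0.292 (adjusted p = 0.00477), Try10 with -1.73 ± 0.318 (adjusted p = 0.0117) and Spink3 with -1.49 ± 0.420 (SE; adjusted p = 0.0419).

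For these 4 genes all scaled Ela1-Myc values lay below all scaled WT values, as for 17.2% of tested genes. Scaled Prss2 was at 68179, 78065 and 78762 in WT, against 30104, 11500 and 11478 in Ela1-Myc. Scaled Try4 was at 77655, 77787 and 101891 in WT, against 30686, 17575 and 15095 in Ela1-Myc. Scaled Try10 was at 3372, 3845 and 4836 in WT, against 1647, 1146 and 907.0 in Ela1-Myc. All 3 trypsinogens were highest in Ela1-Myc replicate 1 among the Ela1-Myc libraries. Scaled Spink3 was at 3947, 4525 and 4865 in WT, against 2954, 1251 and 1055 in Ela1-Myc, and there too the first Ela1-Myc library was the nearest to WT. Try5 overlapped after scaling and was not called (log2 change -1.19 ± 0.461 SE, limma adjusted p = 0.0992), and Prss3 was the 1 member called higher (adjusted p = 0.0338). Prss1 and Prss3 kept all Ela1-Myc values above all WT values after scaling, as did 30.4% of tested genes. The Spink3 call was lost when any library other than Ela1-Myc replicate 1 was left out (limma adjusted p from 0.0568 to 0.145), and the Prss3 call when any other than WT replicate 2 was left out (0.0576 to 0.113). Without WT replicate 2 every remaining WT value of Prss3 was a listed 0, so its call there carries no weight. The Prss2 call was lost without Ela1-Myc replicate 2 or 3 (0.0503 and 0.0516), the Try10 call without WT replicate 3 or Ela1-Myc replicate 2 (0.0507 and 0.0547), and Try5 was called lower without Ela1-Myc replicate 1 (adjusted p = 0.00801). Such losses were not particular to the members. After scaling 706 of 8802 tested genes were called lower, against 204 and 184 without Ela1-Myc replicates 2 and 3. Calls higher went from 1614 to 554 and 517. In the other runs 400 to 647 genes were called lower and 1052 to 1841 higher.

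Among the copies, scaling brought the cationic trypsinogen 2210010C04Rik to -2.54 ± 0.261 (SE; limma adjusted p = 0.00171) and the pseudogene Gm5409 to -1.67 (adjusted p = 0.0203), both called lower. Gm10334 was called higher (adjusted p = 0.0114), and Gm5771, like its partner Prss1 (0.0569), was not (0.0506).

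The direction of Prss2, Try4, Try5 and Spink3 depended on the scale, while Try10 was negative and Prss1 and Prss3 were positive as deposited, after scaling and under quantile normalization. Quantile normalization, which forces the same distribution on every library, gave 0.26 for Prss2 (limma adjusted p = 0.155) and 0.49 for Try4 (adjusted p = 0.015, called higher), with Try5 at 1.39 and also called higher, Try10 at -0.88 and called lower, and Spink3 at -0.53 (adjusted p = 0.236). Under it 996 of 8802 tested genes were called higher and 1758 lower. A single factor per library cancels in ratios between genes inside that library. An adjustment that varied with the level of a gene would not cancel, and the authors' adjustment is not described. Its part in the ratios was not tested. Such ratios were compared next, as 15 measures tested by an exact two-sided permutation test. With 3 against 3 libraries its smallest p is 0.1, and the smallest Benjamini-Hochberg adjusted p over the 15 was 0.188, so none could pass 0.05.

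Spink3 was higher relative to Prss2 in each Ela1-Myc library than in any WT library. It stood at 5.79%, 5.80% and 6.18% of Prss2 in WT, against 9.81%, 10.9% and 9.19% in Ela1-Myc, or 5.92% ± 0.222 and 9.96% ± 0.852 (SD, n = 3 each). The ratio was 1.68-fold higher (log2 difference 0.75; exact permutation p = 0.1, adjusted p = 0.188), which exceeded the pooled spread of 0.0945 log2 units between replicates. Leaving out any single library left the difference between 0.68 and 0.80. On the deposited scale the median of all tested genes was 1.22 log2 units above WT, against 0.03 for Spink3 and -0.72 for Prss2. The median gene thus rose more than Spink3 did, relative to Prss2 or to any other denominator used below. A higher ratio is therefore not particular to Spink3. RNA integrity numbers, in the same order of libraries, were 7.3, 7.3 and 7.1 for WT, against 8.8, 7.2 and 8.3 for Ela1-Myc, and their part in this and the following ratios was not tested.

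The ratio of Spink3 to the other trypsinogens was higher without overlap for Try4 and 2210010C04Rik, and overlapped for Try5 and Try10. Relative to Try4, Spink3 stood at 5.08%, 5.82% and 4.77% in WT, against 9.63%, 7.12% and 6.99% in Ela1-Myc, without overlap (1.503-fold, exact permutation p = 0.1, adjusted p = 0.188). Relative to 2210010C04Rik it went from 16.7%, 16.5% and 18.9% to 48.4%, 35.3% and 27.2% (2.07-fold, same p). Relative to Try5 it was at 10.8%, 10.2% and 12.6% in WT, against 7.99%, 8.66% and 10.6% in Ela1-Myc, with overlap (0.808-fold, exact permutation p = 0.2, adjusted p = 0.25). Relative to Try10 it overlapped as well (1.18-fold, exact permutation p = 0.6).

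Spink3 relative to all 6 trypsinogen members was at 2.13%, 2.20% and 2.17% in WT, against 2.76%, 2.52% and 2.63% in Ela1-Myc. The difference of 0.28 log2 units, 1.22-fold, was above the pooled spread of 0.0515 (exact permutation p = 0.1, adjusted p = 0.188), and no library of one group fell within the other. Its size depended on which copies were summed. It was 0.18 with the close copies added and 0.46 when only members and copies above 0 in all 6 libraries were summed.

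Try5 was also higher relative to Prss2 in each Ela1-Myc library than in any WT library. It was at 53.6%, 56.9% and 48.9% of Prss2 in WT, against 123%, 126% and 86.6% in Ela1-Myc (2.08-fold, log2 difference 1.06, exact permutation p = 0.1, adjusted p = 0.188). Leaving out a library gave 0.96 to 1.23. Here too the median of all tested genes, at 1.22 log2 units on the deposited scale, lay above the 0.33 of Try5. A higher ratio to Prss2 is therefore not particular to Try5 either. Try4 relative to Prss2 overlapped between groups, from 99.6% to 129% in WT and from 102% to 153% in Ela1-Myc (exact permutation p = 0.4, adjusted p = 0.429). Try10 also overlapped, at 4.95%, 4.93% and 6.14% in WT, against 5.47%, 9.97% and 7.90% in Ela1-Myc (exact permutation p = 0.2). The low pseudogene Gm5409 was higher relative to Prss2 without overlap (1.48-fold, exact permutation p = 0.1, adjusted p = 0.188). The 2210010C04Rik ratio to Prss2 overlapped (0.81-fold, exact permutation p = 0.2, adjusted p = 0.25). Try5 shares 45.9% of its 50-base windows with Try4, and their coding sequences are 97.4% identical. How far read assignment between Try4 and Try5 enters the ratios that use them was not tested.

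**Figure D3:**
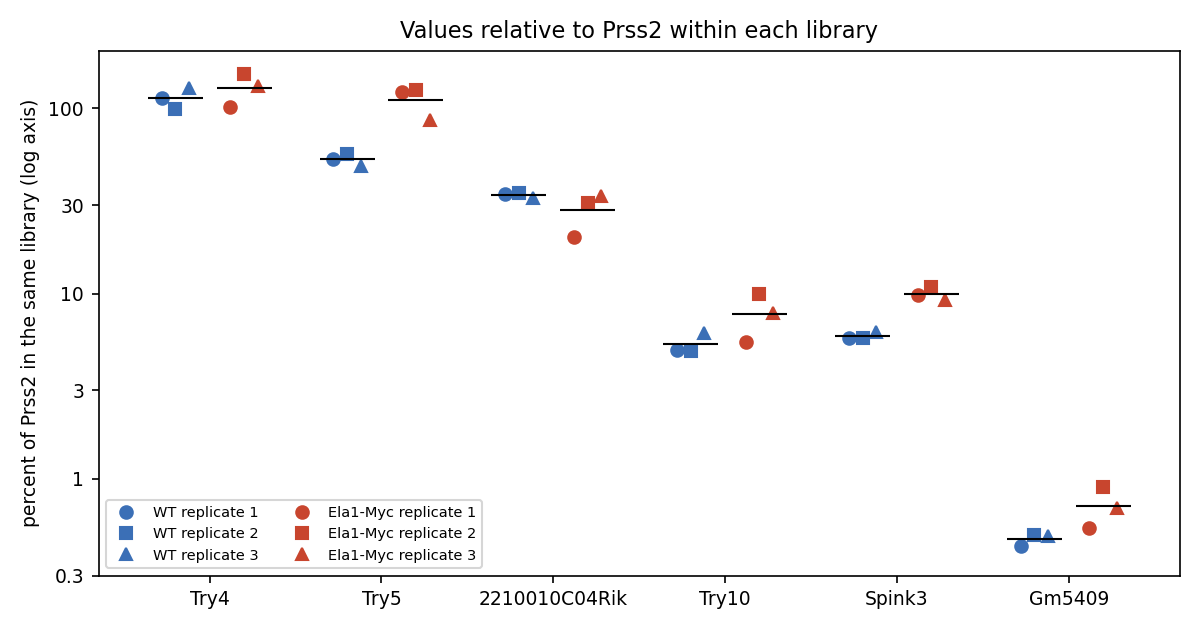
Each gene as percent of Prss2 in the same library (log axis), with marker shapes for replicates and lines for group means. Spink3 sits between 5.79% and 6.18% in WT, and between 9.19% and 10.9% in Ela1-Myc, and Try5 between 48.9% and 56.9% and between 86.6% and 126%.

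The make-up of the summed trypsinogen values differed too. Over the 6 members and their copies, Prss2 made up 32.5% ± 0.961 of the sum in WT and 22.0% ± 2.57 in Ela1-Myc, Try4 37.0% ± 3.72 and 28.0% ± 4.26, and Try5 17.3% ± 1.81 and 24.3% ± 3.64 (SD, n = 3 each). 2210010C04Rik went from 11.1% ± 0.731 to 6.22% ± 1.77. The genes with a listed 0 held 19.7%, 19.7% and 13.4% of the sum in Ela1-Myc replicates 1 to 3 and 0.758% in WT replicate 2. The shares are parts of 1 whole, so a gain of the genes listed at 0 in WT lowers the shares of the others.

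The 6 trypsinogen members together held 11.7%, 10.2% and 10.7% of the summed values of all genes in WT and 17.0%, 12.4% and 10.5% in Ela1-Myc. The groups overlapped (10.8% ± 0.760 and 13.3% ± 3.34, SD, n = 3 each; exact permutation p = 0.3, adjusted p = 0.346), and without Ela1-Myc replicate 1 the difference fell from 2.45 to 0.592 percentage points. Spink3 alone held 0.248%, 0.225% and 0.232% in WT and 0.470%, 0.311% and 0.276% in Ela1-Myc, without overlap (exact permutation p = 0.1, adjusted p = 0.188). Zeros of other genes in WT enter the denominator of these shares, and their part was not tested.

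**Figure D4:**
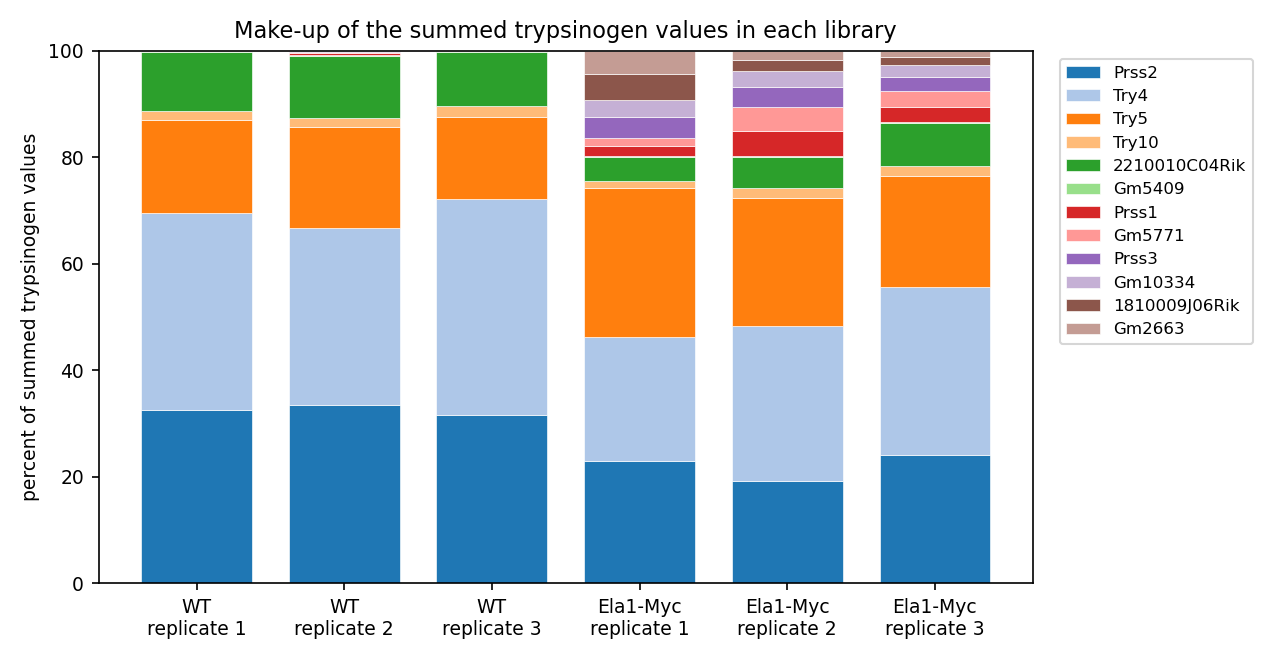
Make-up of the summed trypsinogen values (percent, stacked to 100) in each library, over 6 members and 6 copies. Prss2 and Try4 take a smaller part and Try5 a larger part in the 3 Ela1-Myc libraries, where the genes listed at 0 in WT hold 13.4% to 19.7%.

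Among the zymogens that trypsin activates, part were called lower as deposited and all after scaling. Of 11 genes (chymotrypsinogens, elastases, carboxypeptidases, phospholipase and colipase), 6 were called lower, 0 higher and 5 neither on the deposited scale, where 0.239% of all tested genes were called lower, and the median log2 change was -1.10. All 11 were called lower after scaling, against 8.02% of all tested genes, with a median of -2.62. Chymotrypsinogen Ctrb1 was the most abundant, at 107096, 308965 and 197249 in WT and 194669, 80061 and 101812 in Ela1-Myc, and it was not called on the deposited scale (log2 change -0.68, limma adjusted p = 0.0955). Cela2a and Cela1, both elastases, fell by 1.40 and 1.39 log2 units (limma adjusted p = 0.00535 and 0.00488), and chymotrypsin-like Ctrl fell by 1.19 (adjusted p = 0.0135). Colipase Clps had a log2 change of -1.10 (limma adjusted p = 0.016).

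Inside the libraries, Spink3 was at 0.438%, 0.371% and 0.391% of the summed 11 zymogens in WT, against 1.08%, 0.866% and 0.634% in Ela1-Myc, a 2.10-fold higher ratio without overlap (exact permutation p = 0.1, adjusted p = 0.188). Prss2 was at 7.57%, 6.41% and 6.33% of that sum in WT, against 10.96%, 7.97% and 6.90% in Ela1-Myc. That ratio overlapped between groups (1.25-fold, exact permutation p = 0.2, adjusted p = 0.25), and the log2 difference fell from 0.32 to 0.14 without Ela1-Myc replicate 1. The zymogens had a median log2 change of -1.10 on the deposited scale, against 1.22 for all tested genes. A higher ratio to them is therefore not particular to Spink3.

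**Figure D5:**
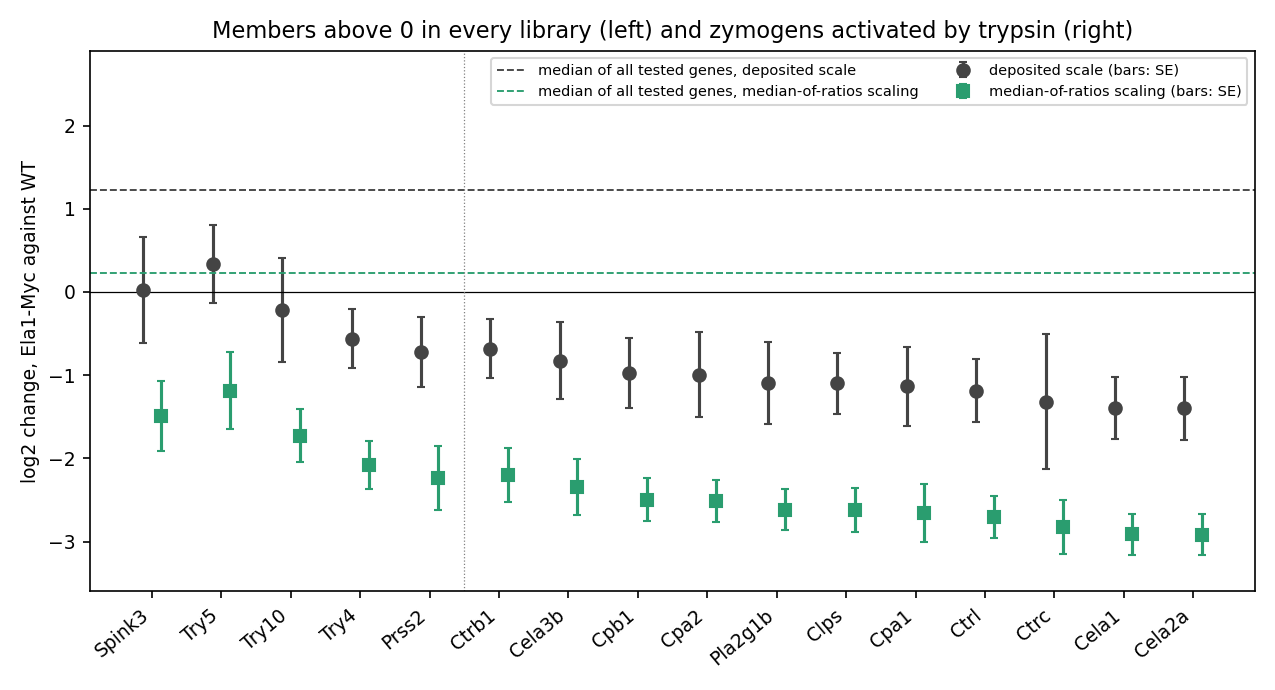
Log2 change in Ela1-Myc against WT with its SE for 5 members above 0 in every library and for 11 zymogens that trypsin activates, on the deposited scale and after median-of-ratios scaling; dashed lines are the medians of all tested genes, 1.22 and 0.23. Every gene shown lies below the median of all tested genes on both scales.

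Proteases that act on trypsinogen, trypsin or cathepsin B were called higher on the deposited scale at a share near that of all genes. Of 4 tested genes of that list, 3 were called higher and 0 lower on the deposited scale (median log2 change 2.21), against 70.2% and 0.239% of all tested genes. After scaling 0 were higher and 1 lower (median 0.72), against 18.3% and 8.02%. Immune cells also make cathepsins, and the part of their markers, given above, was not tested. Cathepsin B (Ctsb), which can activate trypsinogen inside acinar cells, was at 6.11 and 18.0 in WT replicates 1 and 2, listed at 0 for the third, and reached 60.0, 90.5 and 99.0 with Ela1-Myc (limma adjusted p = 0.0015; 0.0984 after scaling). Cathepsin L (Ctsl), which can inactivate trypsin, and cathepsin D (Ctsd), which activates cathepsin B, rose by 1.98 and 2.44 log2 units (limma adjusted p = 0.0398 and 0.017) and did not pass after scaling. Chymotrypsin C (Ctrc), which degrades trypsin, was at 132.4, 476.5 and 221.0 in WT, against 112.6, 69.5 and 112.4 in Ela1-Myc. All Ela1-Myc values of Ctrc lay below all WT values, as for 0.534% of tested genes, and it was called lower only after scaling (log2 change -2.83, limma adjusted p = 0.00274). Ctrc is also counted among the zymogens above. Enteropeptidase Tmprss15, a gene of the gut lining, was at most 0.0227 in every library.

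Other protease inhibitors were far below Spink3. Of the 16 found, 4 were tested, with 1 called higher and 0 lower on the deposited scale, against 70.2% and 0.239% of all tested genes. After scaling 1 was higher and 2 were lower, against 18.3% and 8.02%. The pancreatic serpin gene Serpini2 was at 252.9, 563.8 and 383.7 in WT, against 188.3, 133.2 and 190.3 in Ela1-Myc (log2 change -1.17, limma adjusted p = 0.18; -2.68 and 0.00194 after scaling). Spint2 and Spint1, membrane-bound inhibitors of serine proteases, did not pass on the deposited scale (limma adjusted p = 0.146 and 0.857), and Spint1 was called lower after scaling (-1.30, adjusted p = 0.0241). Ambp, which encodes bikunin, was listed at 0 for WT replicate 1, with 3.24 and 0.00486 for WT replicates 2 and 3, against 11.5, 25.5 and 22.0 in Ela1-Myc (limma adjusted p = 0.000124; 0.0202 after scaling). The trypsin receptor F2rl1, the calcium sensor Casr and the chloride channel Cftr were too low to be tested.

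Transcription factors of acinar cells numbered 1 higher (Gata4) and 0 lower of 6 on the deposited scale, against 70.2% and 0.239% of all tested genes. After scaling they numbered 0 higher and 3 lower (Rbpjl, Bhlha15 and Gata6), against 18.3% and 8.02%. Ptf1a was not called as deposited or after scaling (log2 change 0.15 and -1.27, limma adjusted p = 0.835 and 0.0677). Among the genes above 0 in every library, those most like Spink3 across the 6 libraries were Tcea3, Aldh1l2 and Gamt. Their root mean square distance from it was 0.0592, 0.105 and 0.153 log2 units on centred values, over 6990 candidates. Those most like Prss2 were Ctrb1, 1810053B23Rik and Hsd17b13, at 0.114, 0.115 and 0.159. These distances describe the pattern over libraries on the deposited scale.

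The sequence before the start of transcription was read for the 4 members whose promoters were in the RefSeq table (GRCm38.p6), because acinar genes are known to be bound there by PTF1, a complex that reads an E-box beside a TC-box. The 150 bases before the start are shown 5′ to 3′ on the gene's strand, with capitals for CACCTG (an E-box), TTTCCC (a TC-box), each on either strand, and TATAAA on the gene's strand.
Prss2, chr6:41521626-41521775, plus strand: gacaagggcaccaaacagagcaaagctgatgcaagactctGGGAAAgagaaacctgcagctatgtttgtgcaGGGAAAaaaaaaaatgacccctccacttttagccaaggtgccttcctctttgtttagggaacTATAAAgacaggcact
Try4, chr6:41302122-41302271, plus strand: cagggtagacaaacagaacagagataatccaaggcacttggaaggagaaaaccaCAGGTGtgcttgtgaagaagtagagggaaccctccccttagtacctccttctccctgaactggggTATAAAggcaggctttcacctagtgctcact
Prss1, chr6:41458780-41458929, plus strand: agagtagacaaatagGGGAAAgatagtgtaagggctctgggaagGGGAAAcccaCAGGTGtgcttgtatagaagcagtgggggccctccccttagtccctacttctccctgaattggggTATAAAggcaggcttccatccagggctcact
Prss3, chr6:41377614-41377763, minus strand: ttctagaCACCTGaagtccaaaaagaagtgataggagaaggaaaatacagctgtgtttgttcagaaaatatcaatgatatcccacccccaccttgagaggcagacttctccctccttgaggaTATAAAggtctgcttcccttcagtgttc
Over 250 bases before the start, CACCTG occurred in all 8 trypsinogen promoters of the table (4 members and 4 copies), against 17.2% of 32851 mouse promoters. TATAAA occurred in all 8, against 7.59%, and TTTCCC in 4, against 22.0%. A spaced form, CANNTG followed by TTTCC after 4 bases of any kind, on either strand, occurred in Prss1 and its partner Gm5771 alone among the 8, and in 0.338% of promoters. With 5 bases between them it occurred in 0 of 8, against 0.317%. The MYC E-box CACGTG occurred in 0 of 8, against 6.02%. The E-box of Prss2 lay outside the stretch shown. CACCTG and CACGTG are both forms of CANNTG. The motifs were chosen after the sequences had been seen, and are letters in a window, not measured binding. The promoters of the pairs are copies too: those of Prss1 and Gm5771 were 98.3% identical over 230 aligned columns, and those of Prss3 and Gm10334 were 97.0% identical over 233.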

How the data were processed

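Pancreas RNA of 3 WT and 3 Ela1-Myc samples was deposited as 1 table of adjusted FPKM values per library, per the file headers, on GRCm38 (mm10). Per the submitters' processing notes, the tools include TopHat2 2.0.4 with Bowtie and Cufflinks 2.0.2, besides affy, CASAVA 1.8 and FastQC 0.9.4. The authors' adjustment of the FPKM is not described in the sources used here. ERCC spike-in RNA was added, per the labels' protocols, and was not used here. The protocol states an RNA integrity number above 8.5, while the labels of 5 of the 6 samples give lower ones.

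All values were divided by 100000 and the highest-mean row was kept for each of 187 repeated symbols, none of them a member. The 8802 genes whose mean over 6 libraries reached 1 were tested with limma 3.58.1 (R 4.3.3), two-sided, on log2(value + 1) and with a variance trend over intensity, with Benjamini-Hochberg adjustment over all of them at 0.05, after a check on simulated data. All 7 members passed that filter. Replicate numbers 1 to 3 were assigned within each group in accession order, since the labels give none; they only name libraries and pair nothing. Fold changes on this scale understate the change of low genes. Within-library ratios used exact permutation tests in Python 3.11.15. Sequences came from GENCODE M21 and RefSeq, aligned with Biopython 1.88. Figures were drawn with matplotlib 3.10.9. Alternatives were median-of-ratios scaling, quantile normalization, pseudocounts of 0.1 and 10, no filter, array weights and leaving out each library. Named genes were all members and copies, up to 4 genes of each other list by mean, and the 3 genes most like Spink3 and Prss2. Ctrl, Gata6, Tmprss15 and the named markers of immune, duct and stromal cells were named outside that rule. Members and lists were chosen with earlier results of these data known.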

Additional observations from a re-analysis of the deposited data

How the results depend on the processing

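The count of members called higher, 2 on the deposited scale, stayed at 2 with pseudocounts of 0.1 and 10, without the filter, with array weights and with each library left out. Without WT replicate 2, however, every remaining WT value of Prss1 and Prss3 was a listed 0. They then entered the test only through their Ela1-Myc values, so their calls in that run carry no weight. The count called higher was 1 after median-of-ratios scaling and 4 under quantile normalization. The count called lower, 0 on the deposited scale, was 4 after median-of-ratios scaling, 1 under quantile normalization and 2 with array weights (whose estimation stopped before convergence), and 0 to 2 with a library left out: Prss2 and Try4 without WT replicate 1, and Prss2 without Ela1-Myc replicate 1. Of 8802 tested genes, 996 were called higher and 1758 lower under quantile normalization, and 7572 and 132 with array weights. Pseudocounts of 0.1 and 10 gave 5697 and 6429 genes higher and 14 and 32 lower. Without the filter 8482 of 23099 genes were higher and 25 lower. With a library left out, 3937 to 7441 genes were higher and 4 to 67 lower, of 7947 to 9314 tested. After scaling, leaving out a library gave 0 to 2 members higher and 1 to 5 lower. Of 8802 tested genes, 517 to 1841 were called higher and 184 to 647 lower in these runs. The 2 members higher were Prss1 and Prss3 without WT replicate 2, where their remaining WT values were all listed zeros. The cause of the differences between settings was not tested. Among the members, changes of sign were limited to genes not called on the deposited scale. Try5 was at -1.19 after median-of-ratios scaling and -0.20 to 0.75 with a library left out. Spink3 was at -1.49 after scaling, -0.53 under quantile normalization, -0.12 with array weights and -0.42 to 0.37 with a library left out. Try10 ran from -0.60 to 0.095 with a library left out. Under quantile normalization Prss2 was at 0.26 and Try4 at 0.49. The Spink3 to trypsinogen log2 difference, 0.28, was 0.75 with Prss2 alone, 0.18 with the close copies added, 0.40 with the members above 0 in all libraries and 0.46 with members and copies above 0. Leaving out a library gave 0.25 to 0.32 for it, 0.592 to 3.84 percentage points for the trypsinogen share and 0.14 to 0.47 for Prss2 to zymogens. The sums over genes above 0, and leaving out a library after scaling or for Spink3 to Prss2 and Try5 to Prss2, were chosen after seeing the data. No paired analysis was possible because the labels give no replicate numbers, and those used here, assigned in accession order, only name the libraries. The depth is unknown, so no counting error can be given.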
